A study of Drosophila melanogaster with 12 samples.

Results

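The genes described here are the larval Drosophila melanogaster genes that could be compared for intronic and spliced RNA in random-primed libraries after ribosomal RNA depletion. RNA came from 3 pools of Oregon-R larvae, each of 40 animals at the wandering stage of the third instar. Ribosomal RNA (rRNA) was removed with Ribo-Pop, in which biotinylated DNA oligonucleotides hybridize to rRNA and are pulled out on streptavidin beads. The depleted RNA of each pool was made into a random-primed library (NEBNext kit) and a poly(A)-primed 3′ library (QuantSeq), and the undepleted input RNA into the same 2 kinds of library, giving 12 libraries in 4 groups of 3. All groups share the strain and stage. Each library is bulk RNA of whole larvae, so fewer cells of a type and less RNA per cell cannot be told apart, and p-values measure the spread between these 3 pools only.

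A gene entered when its intronic and spliced estimated counts summed to at least 100 in each of the 3 random-primed depleted libraries, with genes whose symbol contains rRNA and synthetic spike-ins left out. This kept 6915 of 17668 genes, which held 97.2% to 97.4% of the non-rRNA counts of those libraries. An intronic count is a read assigned by Kallisto, a program that assigns reads to transcripts without aligning them to a genome, to an intron sequence with its flanks, and a spliced count is a read assigned to the mature transcripts of the same gene. Intronic share means intronic counts as a percentage of both. All 24 listed markers of larval salivary gland, fat body, muscle, hemocytes, neurons, gut, cuticle and spermatocytes were among the genes kept, with 116 to 213779 summed counts on average.

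Introns are transcribed together with the exons around them and are cut out by the spliceosome, usually while the polymerase is still on the gene, and the released lariat is then debranched and degraded. Intronic reads can therefore come from nascent transcripts, unspliced messages or excised introns, from small RNA genes, transposable elements or whole genes lying inside the intron, or from an exon that only some isoforms use. Kallisto counts cannot tell these sources apart. In Drosophila, regulatory, neuronal and Y-linked genes are known for very long introns, and housekeeping and larval secretory genes for short ones.

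The 3 random-primed depleted libraries held 14264502 to 16889144 counts each, of which 9037947 to 12422418 were not rRNA. Replicate 3 stood apart from the other pools, with an rRNA share of 33.4% against 23.7% and 24.6% in replicates 1 and 2, and with fewer spliced counts of muscle genes, such as 4954 for the myosin heavy chain gene Mhc against 15922 and 18928. Intronic counts made up 7.38%, 7.09% and 8.20% of all non-rRNA counts in these libraries (mean 7.56% ± 0.579, SD, n = 3), with replicate 3 the highest. A part of this total came from few genes. Genes with at least 1 kb of transposable element on their own strand inside introns supplied 29.4% to 32.4% of all intronic counts, and sls alone supplied 6.21% to 7.34%.

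Most larval genes carried little intronic RNA. The median intronic share over the 6915 genes was 1.35%, with quartiles of 0.218% and 8.66%, and the median SD of a gene's share between the 3 libraries was 0.459 percentage points. By mean share, 1047 genes had no intronic count, 2103 lay between 0 and 1%, 2166 between 1 and 10%, 1317 between 10 and 50%, 245 between 50 and 90%, and 37 above 90%. Only 430 of the 1047 had an intron, and over the 6297 genes with an intron the median share was 1.85%. A share above 50% in all 3 libraries was found for 231 genes, called mostly intronic below. Of the 6297 genes of the set that could be fitted, 230 (3.65%) were mostly intronic, beside 330 (3.34%) of all 9894 genes fitted. Leaving out replicate 3 gave 272 such genes, leaving out replicate 1 gave 242 and leaving out replicate 2 gave 248.

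Intronic counts were tested against spliced counts of the same gene and library with edgeR's quasi-likelihood test, a count model fitted across all genes, with Benjamini-Hochberg adjustment and a call at adjusted p under 0.05. Over all 9894 genes fitted, intronic counts were higher in 264 (2.67%) and spliced counts in 9281 (93.8%). Among the 6915 genes, 190 were called intronic higher, 5929 spliced higher and 178 neither, and 618 without an annotated intron were not fitted. The count of 190 rests on the same values as the intronic share and describes it. Of the 231 mostly intronic genes, 188 were called and 42 were not, and 1 gene, udd, which encodes a protein of the RNA polymerase I machinery, was not fitted because the annotation used gives it no intron. Many of the 231 entered through their intronic counts, since 102 had under 100 spliced counts in at least 1 library and 73 in all 3. Of the 128 fitted with at least 100 spliced counts in every library, 101 were called.

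**Figure D1:**
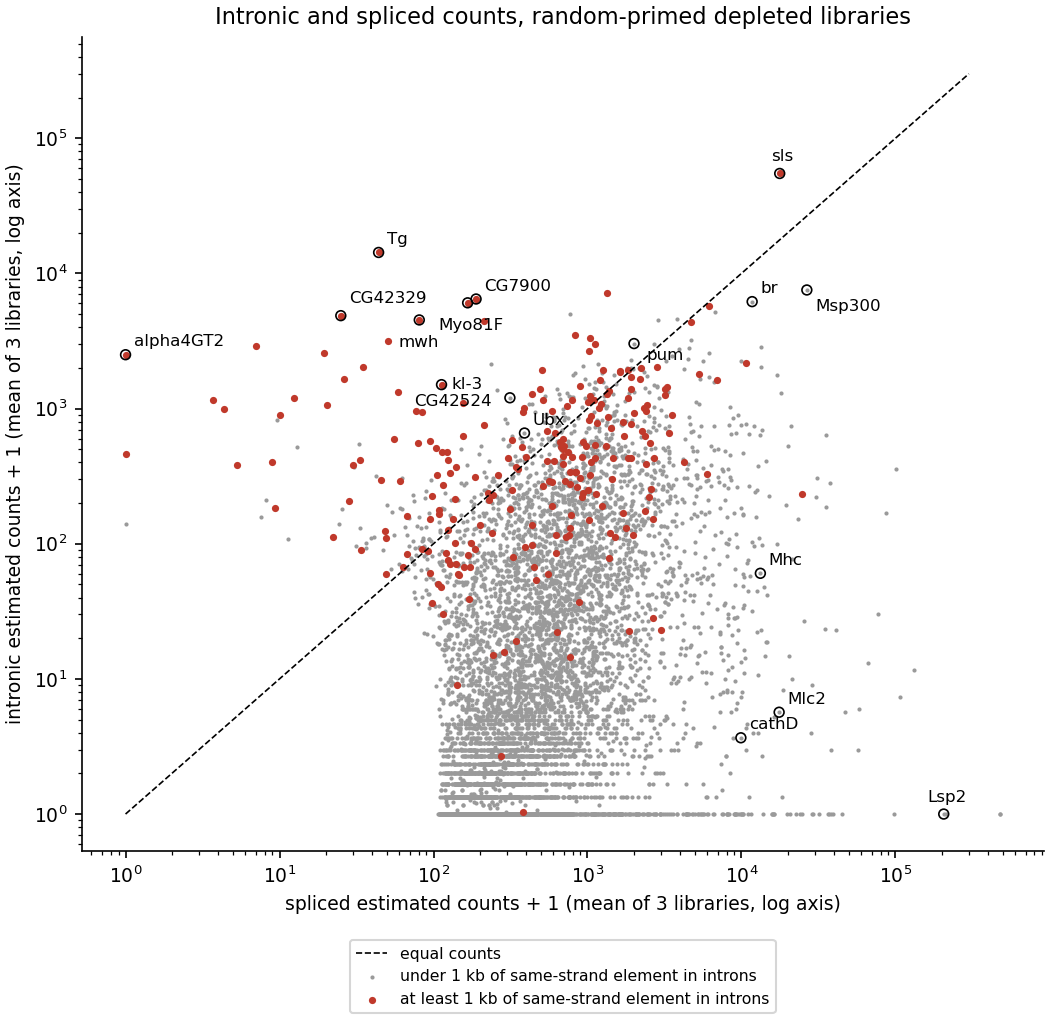
Intronic against spliced estimated counts of the genes with an annotation, each point 1 gene and the mean of 3 random-primed depleted libraries, with 1 added and both axes logarithmic. Points above the dashed line had more intronic than spliced counts, and red points, genes with at least 1 kb of same-strand element in introns, include sls, Tg, CG42329 and alpha4GT2 at the top and left.

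Intronic share followed intron length. Intron length here is the number of bases that are intronic in every annotated isoform (Ensembl annotation of BDGP6.54). The median share was 0.292% in 2516 genes with up to 0.5 kb of intron, 1.92% in 1452 genes with 0.5 to 2 kb, 8.61% in 1238 genes with 2 to 10 kb, 25.5% in 645 genes with 10 to 30 kb, and 48.4% in 409 genes with over 30 kb. Of the last group 164 (40.1%) were mostly intronic. Among genes over 30 kb with no annotated element on either strand the median was 44.5% (n = 161), and 51 were mostly intronic. Mostly intronic genes had a median of 53.4 kb of intron, against 0.841 kb over all genes with an intron. Spearman's rho between share and intron length was 0.895 across 6260 genes, which share libraries and are not independent replicates.

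Intronic counts per kb of intron came to a median of 5.35% ± 0.357 (SD, n = 3) of the spliced counts per kb of exon. Only 44 of 6182 genes with both lengths had more intronic than spliced counts per kb, and of the 224 mostly intronic genes with both lengths, 29 did.

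**Figure D2:**
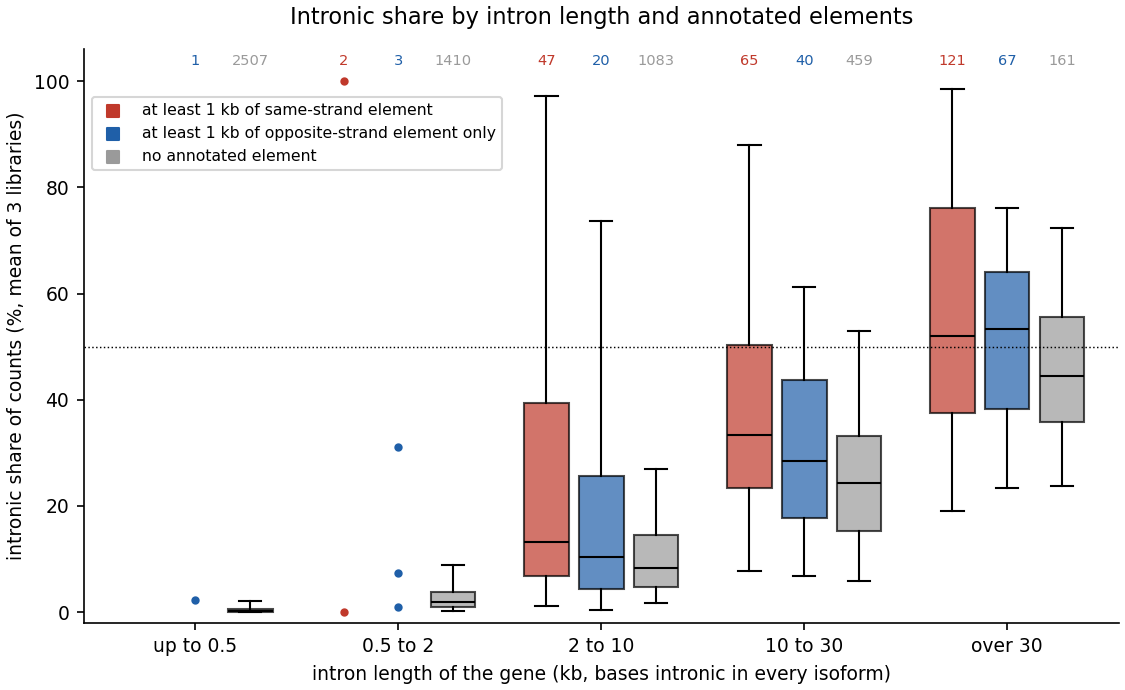
Intronic share (mean of 3 random-primed depleted libraries) by the gene's intron length in kb, split by transposable elements annotated in the introns, with the number of genes above each box. Boxes give quartiles and median, whiskers the 5th and 95th percentiles, and points single genes of classes under 20, and the medians step up with length in each class of boxes.

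Transposable elements lay on the same strand in the introns of 100 of the 228 mostly intronic genes with an annotation (43.9%), against 321 of the 6033 other annotated genes (5.32%). An exon of another gene on the same strand lay in the introns of 94 (41.2%), against 568 (9.41%). Elements on the opposite strand only, of at least 1 kb, lay in 39 (17.1%), against 92 (1.52%). Neither a same-strand element nor a same-strand exon was present in 76 (33.3%), against 5210 (86.4%). The groups differ in intron length, with over 30 kb in 164 (71.9%), against 245 (4.06%). Among genes over 30 kb, 59 of 121 (48.8%) with at least 1 kb of same-strand element were mostly intronic, and 51 of 161 (31.7%) with no element. How far length or entry through intronic counts accounts for these contrasts was not tested. Leaving out genes with same-strand elements gave 131 mostly intronic genes, leaving out those with same-strand exons as well gave 79, and leaving out also every gene with any base that is intronic in one isoform and exonic in another gave 22, in each case with the genes lacking an annotation kept in. The elements are those of the reference genome. Whether Oregon-R carries each insertion, and how far reads from other copies of an element were assigned to an intron, was not tested.

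Of the 20 called genes with the highest shares, 17 hold at least 1 kb of same-strand element in their introns. Tg encodes a transglutaminase, an enzyme that cross-links proteins such as those of the hemolymph clot, and lies on chromosome 2L from 8011405 to 8026898, with a copia element of 5146 bases and a Doc element in 12.4 kb of intron. Tg had 16114, 13234 and 13516 intronic counts, against 46.2, 63.8 and 19.0 spliced counts, a share of 99.7% ± 0.170 (SD, n = 3), so that Tg entered through its intronic counts. CG42329, with 7409 bases of blood in 8.03 kb of intron, had 5017, 4362 and 5225 intronic counts, against 24, 38 and 10 spliced counts, and entered in the same way.

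At alpha4GT2, which encodes an alpha-1,4-galactosyltransferase family member, 9124 of the 9129 intronic bases are a roo element. The gene had 2309, 2476 and 2720 intronic counts, against 0 spliced counts in every library, at least 834-fold more against a floor of 3 counts per library. In the poly(A)-primed depleted libraries it had no count of either kind. The histone pseudogene His-Psi:CR33867, with a pogo element in its intron, had 498, 415 and 466 intronic counts, against 0 spliced counts, at least 153-fold more. Both genes thus entered through intronic counts alone, as did tRNA:Tyr-GTA-1-9, whose intron overlaps an exon of Ntl and which had 117, 150 and 147 intronic counts, against 0 spliced counts, at least 46-fold more.

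The gene mwh, multiple wing hairs, restricts actin prehairs in wing cells, and its introns hold 7591 bases of a 412 element and 4 lysozyme genes. Its counts were 4805, 5362 and 3407 intronic, against 93.7, 77.4 and 68.4 spliced, too few to enter by themselves. CG7900, with a Transpac element of 5248 bases, had 6242, 5838 and 7313 intronic counts, against 204, 205 and 155 spliced counts. Further genes of this kind in the top 20 by share were lncRNA:bxd, a noncoding RNA of the bithorax complex that carries diver, Teh1, a sodium channel auxiliary subunit gene with flea, and Ir40a, a humidity receptor gene with copia and Cr1a, all above 99%. Of the 8 genes with at least 4 kb of same-strand copia, intronic counts averaged 54883 in sls, 14288 in Tg, 3494 in Eip63E, 2895 in Ir40a, 1794 in mbl, 1010 in CG34347, 414 in CadN2 and 251 in rut. Intronic counts thus ranged widely between hosts of the same element.

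Orientation and coverage could be compared where an element filled at least 50% of the intron. With the element on the same strand, 13 of 28 genes (46.4%) were mostly intronic, with a median share of 49.6% and a median intron of 7.75 kb. With elements on the opposite strand only, 2 of 24 were (8.33%), with a median share of 10.3% and a median intron of 8.996 kb. Among the 13, His-Psi:CR33867, alpha4GT2, CG9766, CG18754, CG42329, Tg, CG3894, CG2528 and CG43291 averaged under 100 spliced counts (0 to 94). Both opposite-strand genes did too, CR32010 at 7.18 and CG14636 at 88. All of these genes entered with the help of intronic counts, so the numbers of mostly intronic genes depend in part on the entry rule. Over all hosts of at least 1 kb of element the classes lay closer, with 84 of 235 genes (35.7%, median share 42.1%) for the same strand and 39 of 131 (29.8%, median 38.1%) for the opposite strand only, and among introns over 30 kb in all it was 59 of 121 (48.8%, median 52.005%) and 33 of 67 (49.3%, median 53.3%). Differences between the classes were not tested. Some hosts carried almost no intronic RNA. The eye pigment transporter gene bw, with 7519 bases of 412, had 4, 0 and 1 intronic counts, against 327, 278 and 221 spliced counts, and cathD, the cathepsin D gene with elements on the opposite strand, had 1, 5 and 2, against 11897, 11584 and 6263.

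Genes of the Y chromosome and of the centromere-proximal 5 Mb of the arms formed a further group. All 6 Y-linked genes that entered, of 12 listed, were mostly intronic and called intronic higher, with a median share of 94.4%: WDY, Ppr-Y, kl-2, kl-3, PRY and kl-5. Spliced counts averaged 8.57 in WDY, 11.3 in Ppr-Y, 10.3 in PRY and 72.7 in kl-5, under 100 in each library. These genes could enter only through intronic counts, so the 6 of 6 follows in part from the entry rule. The median intron of the 6 was 156 kb, and 40.1% of all genes with over 30 kb of intron were mostly intronic. The kl genes encode dynein heavy chains of the sperm axoneme and are transcribed in spermatocytes. For kl-3, with 213 kb of intron, counts were 1712, 1321 and 1472 intronic, against 126, 81.3 and 128 spliced, so that it too entered with the help of intronic counts.

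In the centromere-proximal 5 Mb, 46 of 475 genes (9.68%) were mostly intronic, against 172 of 5709 (3.01%) elsewhere on the arms. Their median introns were 1.35 and 0.798 kb. Some of the 46 entered through intronic counts, such as CG45782, Ir40a and DIP-lambda, with 3.33, 6.02 and 19.3 spliced counts on average. The numbers thus depend in part on the entry rule. The arms differed, with 13 of 29 proximal genes (44.8%) on 2R, where the median intron was 11.5 kb, 7 of 25 (28%) on 3L, 8 of 60 (13.3%) on 3R, 12 of 212 (5.66%) on 2L and 6 of 149 (4.03%) on X, against 4.11% elsewhere on 2L and 3.78% elsewhere on X. The median intron was 8.43 kb on proximal 3L and 1.92 kb on proximal 3R. Myo81F, a myosin gene with 1959 kb of intron on 3R, had 6375, 5791 and 6006 intronic counts, against 171, 129 and 197 spliced counts. Dbp80, which encodes a DEAD-box RNA helicase, had 7754, 6515 and 7078 intronic counts, against 1440, 1220 and 1348 spliced counts, and its share of 84.2% ± 0.172 (SD, n = 3) varied less between libraries than the median SD of 2.17 over mostly intronic genes. CG41378 on 2R had 4708, 4026 and 4697, against 207, 214 and 214. CG40178, which is not in the annotation used, had a share of 89.5% ± 1.17 (SD, n = 3), and the other mostly intronic genes without annotation were the homeobox gene scro and nvd, an enzyme gene of ecdysone synthesis.

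Among the mostly intronic genes, 76 have neither a same-strand element nor a same-strand exon in their introns, udd with no annotated intron at all included, and the ones named in this group were picked after their values were seen. This group overlaps the Y-linked and centromere-proximal genes above, for example in PRY, kl-5 and CG14636. Genes that hold a microRNA in an exon stand among the 76 as well. CG42524, whose last exon in 1 isoform holds mir-278, had 1378, 1507 and 717 intronic counts, against 340, 381 and 216 spliced counts, a share of 79.0% ± 1.82 (SD, n = 3) and a log2 ratio of 1.92 (SE 0.15, adjusted p = 3.10e-39, edgeR). Counts in replicate 3 were the lowest of both kinds, and every intronic value exceeded every spliced one. Shares were 83.3% ± 1.32 in lncRNA:CR44206, with mir-184 in its last exon, 77.1% ± 2.02 in lncRNA:let7C, the precursor of the let-7 cluster that is induced by ecdysone, and 66.3% ± 2.02 in lncRNA:CR46006, with mir-276a in its last exon (SD, n = 3 each). Most microRNA hosts lay below 50%. Over the 25 annotated genes with microRNAs in exons only, the median share was 20.2% and 5 were mostly intronic, and over the 87 with a microRNA in an intron it was 17.7% and 12 were mostly intronic. Over the 90 genes with small nucleolar or spliceosomal RNAs in an intron the median was 3.44%, and 5 were mostly intronic.

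Other genes without same-strand elements or exons, picked in the same way, encode developmental regulators. Ubx, the Hox gene of the third thoracic segment on 3R from 16656623 to 16734426, has 73.5 kb of intron with no element on its strand. It had 740, 757 and 477 intronic counts, against 438, 391 and 338 spliced counts, a share of 62.4% ± 3.72 (SD, n = 3) and a log2 ratio of 0.74 (SE 0.15, adjusted p = 6.36e-07, edgeR). The translational repressor gene pum had 3454, 2926 and 2695 intronic counts, against 2149, 1967 and 1898 spliced counts, the most intronic counts of any gene in this group. In both, no intronic value lay below a spliced one. The T-box gene bi (65.5% ± 1.79), the engrailed paralog inv (62.6% ± 4.63) and the RNA-binding protein gene msi (64.5% ± 0.828) were called as well (SD, n = 3 each).

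**Figure D3:**
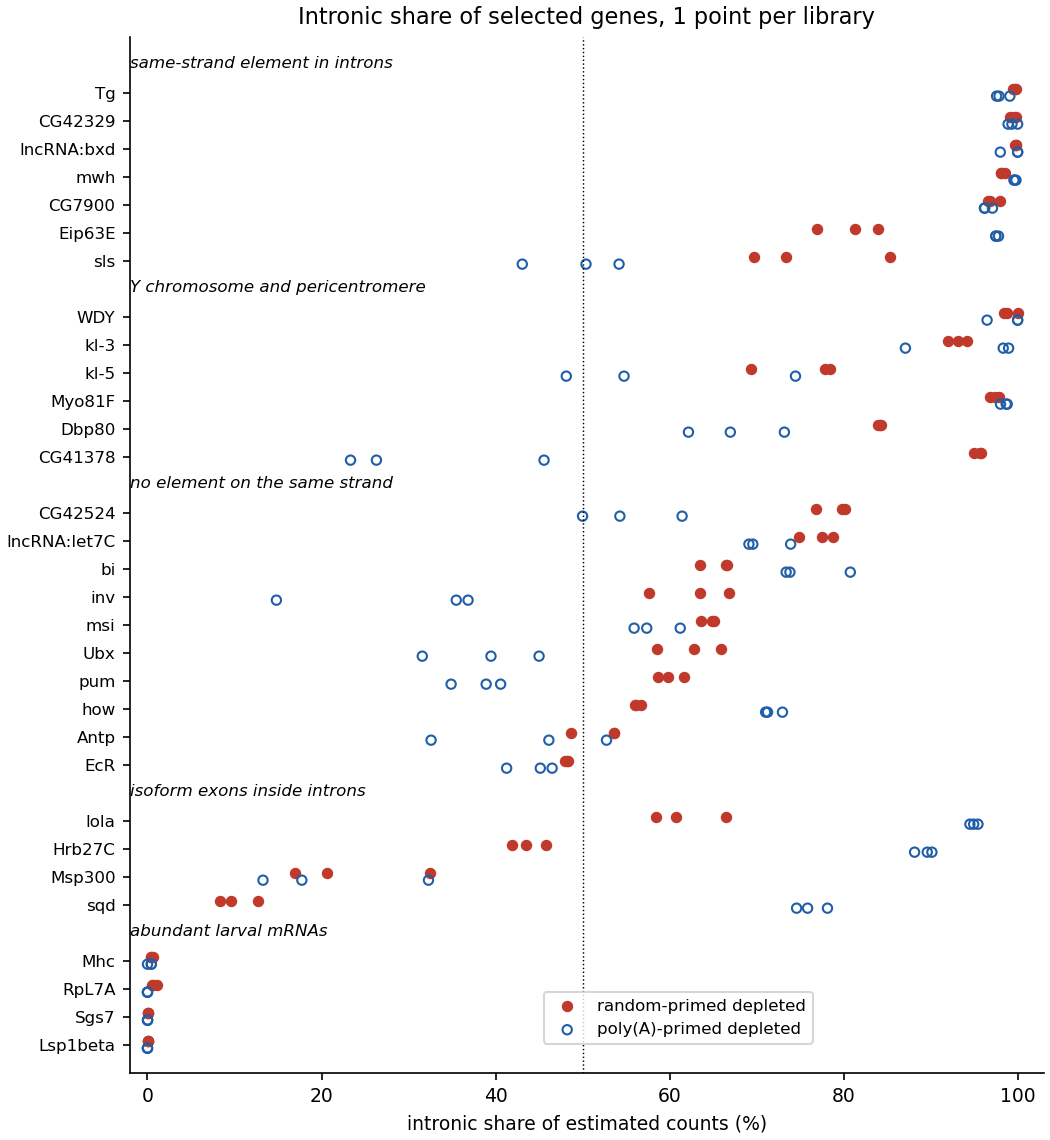
Intronic share of estimated counts for selected genes, 1 point per library, filled red for the 3 random-primed depleted and open blue for the 3 poly(A)-primed depleted libraries, with a dotted line at 50%. Tg, CG42329 and lncRNA:bxd lie near 100% in both kinds of library, Ubx and pum lie above 50% in red and below it in blue, and Mhc, RpL7A, Sgs7 and Lsp1beta lie near 0. EcR, drawn under the heading of no element on the same strand, does hold a same-strand Tc1-2 element.

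By gene list, ecdysone regulators, Hox genes, neuronal genes and disc patterning genes had median shares of 40.9%, 47.0%, 36.1% and 33.2%, against 1.85% over all genes with an intron. Their median introns were 42.1, 33.2, 33.2 and 14.5 kb, and all genes with 10 to 30 kb and with over 30 kb of intron had median shares of 25.5% and 48.4%. The counts of calls below stand beside 2.67% intronic higher and 93.8% spliced higher over all genes fitted. Of 17 ecdysone regulators, 2 were called intronic higher, 9 spliced higher and 6 neither. Those called intronic higher were Eip63E (80.7% ± 3.53), a cyclin-dependent kinase gene that carries copia, and the coactivator gene tai (54.6% ± 5.36). The hormone receptor gene EcR stood close to parity, with 5054, 4867 and 3203 intronic counts, against 5417, 5206 and 3471 spliced counts (log2 ratio -0.10, SE 0.14, adjusted p = 0.457, edgeR), and br, the early response zinc finger gene, had a share of 33.8% ± 5.34 (SD, n = 3 each). Of 5 Hox genes, Ubx alone was called intronic higher, Antp (51.98%) and Scr (47.0%) were not called, and abd-A (25.8%) and Abd-B (18.1%) were called spliced higher.

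Among 22 neuronal genes, 4 were called intronic higher, 13 spliced higher and 5 neither. The 4 were para, the voltage-gated sodium channel gene (80.9% ± 2.28), Nlg2, a neuroligin gene (72.01% ± 9.30), Shab, a potassium channel gene (63.9% ± 9.08), and dnc, a cAMP phosphodiesterase gene (60.6% ± 2.60, SD, n = 3 each). Same-strand elements lie in the introns of 6 of the 22, among them para (mdg3), Nlg2 (diver) and dnc (opus). Nlg2 also holds a microRNA in an intron. The pan-neuronal markers elav (5.51%) and nSyb (11.4%) were called spliced higher, so a neuronal gene could stand on either side. In 25 disc patterning genes with an intron, bi and inv were called intronic higher, 21 were spliced higher, and Dll (46.9%) and ct (49.8%) were neither. Splicing regulators had a median of 15.9%, and of 26, the 3 RNA-binding protein genes how (56.3%), Rbfox1 (58.3%) and bru1 (58.4%) were called intronic higher, 21 spliced higher and 2 neither. The call of how was lost in DESeq2, without the library block and without replicate 1. The 3 listed genes with recursive splicing, in which a long intron is removed in steps, were all mostly intronic, namely Ubx, osp (61.9%) and kuz (53.3%, not called). Of the 3, osp holds a same-strand roo element and kuz a same-strand F element. The median intron of the 3 was 82.2 kb, and 40.1% of all genes with over 30 kb of intron were mostly intronic.

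Several lists lay near 0, and since 93.8% of all genes fitted were spliced higher, a list with every gene so called is near the background. All 83 cytosolic ribosomal protein genes with an intron were spliced higher, with a median share of 0.221%, as were 5 salivary glue genes (0.0375%), 19 cuticle genes (0.105%), 8 digestive enzyme genes (0.149%), 7 hemocyte genes (0.158%), 5 genes of larval serum and fat body proteins (0.00651%), 4 dosage compensation genes (0.721%) and 10 glycolytic enzyme genes (1.95%). Of 13 insulin and TOR signaling genes 12 were spliced higher (median 3.62%), and foxo (46.5%) was not called. All 4 circadian clock genes were spliced higher (24.7%), as were the snoRNA hosts Uhg1 and Uhg3, with Uhg4 (48.1%) not called and a list median of 26.4%. The gene mub, a known source of a stable intronic RNA, was spliced higher at 31.7%.

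**Figure D4:**
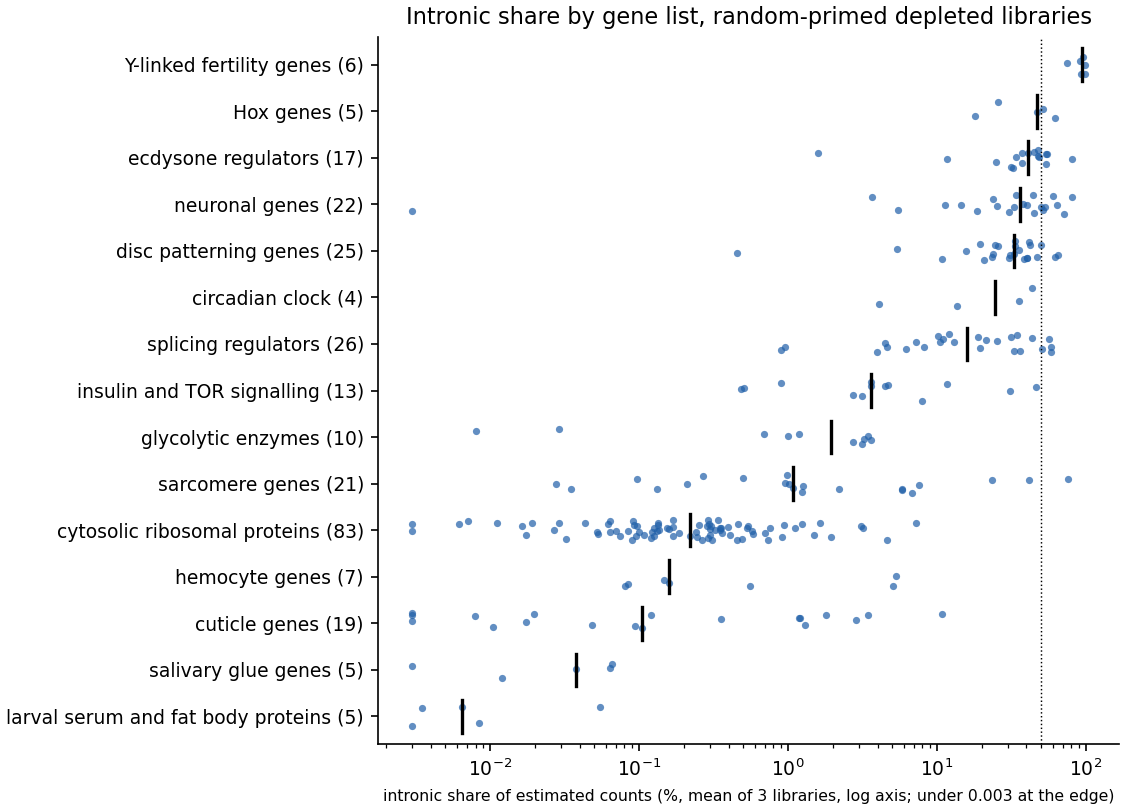
Intronic share (mean of 3 random-primed depleted libraries, logarithmic axis) of the genes of each list that were fitted, with the number of genes in brackets, black bars at list medians and a dotted line at 50%. Y-linked, Hox, ecdysone and neuronal genes lie mostly above 10%, and serum, glue and cuticle genes mostly below 1%.

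The lowest shares among fitted genes with over 10000 summed counts were at 0 intronic counts in Fbp1, the fat body receptor for storage proteins, in the heat shock noncoding RNA lncRNA:Hsromega, in Eig71Ee and in the odorant-binding protein gene Obp99b. Fbp1 and lncRNA:Hsromega have no base that is intronic in every isoform. The share was next lowest in RpL21, with 1, 0 and 0 intronic counts, against 11892, 10443 and 11370 spliced counts. A count of 0 cannot show absence, and for Obp99b it allowed an intronic share of up to 0.00272%, from 3 counts over the 3 libraries. Altogether 430 genes with an annotated intron had no intronic count.

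Several genes with many intronic counts have introns with bases that are exonic in another isoform, and the counts carry no position within a gene. sls encodes Sallimus, the titin-like protein of the muscle I-band, and lies on 3L from 2039681 to 2115611, and 67.9% of the bases in its introns are exonic in another isoform, beside a copia of 5146 bases. It had the most intronic counts of all genes, 57084, 53145 and 54419, against 20674, 23153 and 9332 spliced counts (shares 73.4%, 69.7% and 85.4%, log2 ratio 1.73, SE 0.16, adjusted p = 3.41e-25, edgeR). Intronic values were close in the 3 libraries before any scaling for depth, and spliced values varied more, with the lowest in replicate 3. Replicate 3 held 9037947 non-rRNA counts, against 12422418 and 12077781 in replicates 1 and 2. As a part of all intronic counts, sls was higher in replicate 3, at 7.34%, against 6.23% and 6.21%. sls was the only one of 21 sarcomere genes called intronic higher, and the other 20 were spliced higher (list median 1.08%). Msp300, the muscle nesprin gene, with 54.9% of intron bases exonic elsewhere, had 7330, 6964 and 8325 intronic counts, against 28265, 34168 and 17320 spliced counts. Hrb27C, an hnRNP gene, had 5450, 5380 and 4754 intronic counts, against 7544, 6994 and 5620 spliced counts, and its call as spliced higher was lost in DESeq2, without the library block and without replicate 1. The part of isoform exons in these intronic counts was not tested.

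Shares were less steady in a few genes. Gk2, a glycerol kinase gene, had shares of 29.7%, 42.2% and 76.3%, and the sodium channel gene NaCP60E had 9.43%, 49.8% and 35.5%. Neither gene was called.

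The random-primed depleted libraries were then set against the poly(A)-primed depleted libraries of the same RNA, to ask whether the intronic RNA was also seen with priming at poly(A) tails. Intronic share of non-rRNA counts was 7.56% ± 0.579 in random-primed and 2.28% ± 0.109 in poly(A)-primed depleted libraries (SD, n = 3 each), and all random-primed values lay above all poly(A)-primed ones. The exact two-sided permutation test gave p = 0.1, the smallest that 3 against 3 libraries allow. Without genes holding same-strand elements the shares were 5.12% ± 0.263 and 1.66% ± 0.0713 (p = 0.1, same exact test). Kit, priming and read position differ together between these groups and cannot be told apart.

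By gene, the edgeR interaction of count type and kit was called for 2112 of 7573 genes with a higher ratio in random-primed depleted libraries (27.9%) and for 507 with a lower one (6.69%). Of 5935 genes of the present set that were fitted, 2035 were higher, 478 lower and 3422 not called. This split depended on genes with few intronic counts and on the scaling. Of the 2035, 686 had no intronic count in any poly(A)-primed depleted library. Over the 691 genes with at least 10 counts of both kinds in all 6 libraries, 209 were higher and 254 lower, with a median log2 difference of -0.06. Normalizing each count type by the trimmed mean of M-values (TMM) moved these genes by -1.33 on the log2 scale, and the calls over all genes became 934 higher and 973 lower, so the directions below are relative to equal scaling within a library. Mostly intronic genes were chosen by their shares in the random-primed depleted libraries, so more calls higher than lower follow in part from that choice. They were fitted in 185 cases, with 89 higher and 27 lower. Of them, 107 had at least 10 counts of both kinds in all 6 libraries, with 57 higher and 13 lower (median log2 difference 0.77), and with TMM 17 higher and 48 lower (median -0.55), so that their direction turned with the scaling. Pooled over all mostly intronic genes, fitted or not, counts were 73.2% intronic in random-primed and 66.7% in poly(A)-primed depleted libraries.

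The largest differences upward were in genes with 0 intronic counts in all poly(A)-primed depleted libraries. COX6B, a cytochrome c oxidase subunit gene, had 96.7, 69.0 and 62.3 intronic counts beside 1587, 1472 and 1061 spliced counts in random-primed depleted libraries, against 0 beside 2776, 2383 and 1537 in poly(A)-primed ones, where 0 allows a share of up to 0.0448%. CG11686, CG15308 and the ribosomal protein genes RpL7A and RpS4 had the same form. In COX6B, 2483 intron bases are exon of the same-strand gene CG18809, and RpL7A and RpS4 hold small nucleolar RNA genes in introns. What these nested genes contribute was not tested. Among genes with counts on both sides, CG41378 had shares of 95.8%, 94.9% and 95.7% in random-primed depleted libraries, against 45.6%, 23.3% and 26.3% in poly(A)-primed ones (log2 difference 5.54, SE 0.26, adjusted p = 2.93e-97, edgeR). For sls the difference was 1.79 (SE 0.25, adjusted p = 3.47e-11), for Ubx 1.37 (SE 0.33, adjusted p = 0.000133) and for pum 1.28 (SE 0.22, adjusted p = 9.12e-08, edgeR for each). With TMM these 3 calls ended, at 0.46 (adjusted p = 0.149) for sls, 0.04 for Ubx and -0.04 for pum (adjusted p = 1 for both, edgeR), and CG41378 stayed higher at 4.22. Tg (97.6%, 97.9% and 99.1%) and mwh (99.7%, 99.8% and 99.6%) kept high shares with poly(A) priming.

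The largest differences downward were in CG43896, CG9691, lwr, CG8229 and Pal1. In these genes 21.9% (CG43896) to 100% (CG9691) of intron bases are exonic in another isoform, and what such bases contribute was not tested. Pal1, a peptide-amidating lyase gene, had 17, 16 and 12 intronic counts beside 1123, 1154 and 584 spliced counts in random-primed depleted libraries, against 194, 171 and 104 beside 16, 26 and 15 in poly(A)-primed ones (log2 difference -8.98, SE 0.35, adjusted p = 5.05e-139, edgeR). Alignment-based HTSeq counts over exons of the same poly(A)-primed libraries were 256, 250 and 138, above the Kallisto spliced counts. The same held for Hrb27C, with 1704, 1890 and 1285 intronic beside 197, 207 and 173 spliced counts in poly(A)-primed libraries and 1955, 2200 and 1502 HTSeq counts. Of the 169 genes called lower with at least 50 poly(A)-primed intronic counts, 69 had HTSeq counts above 2 times the spliced ones. Of the 82 mostly intronic genes with that many, 3 did, and in 21 the HTSeq count was under 10% of the intronic one, as in Tg with 17, 19 and 5. Eip63E, with its copia, was lower as well, at 81.3%, 76.9% and 83.9% in random-primed, against 97.5%, 97.5% and 97.8% in poly(A)-primed depleted libraries (log2 difference -3.26, SE 0.25, adjusted p = 3.14e-37, edgeR).

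**Figure D5:**
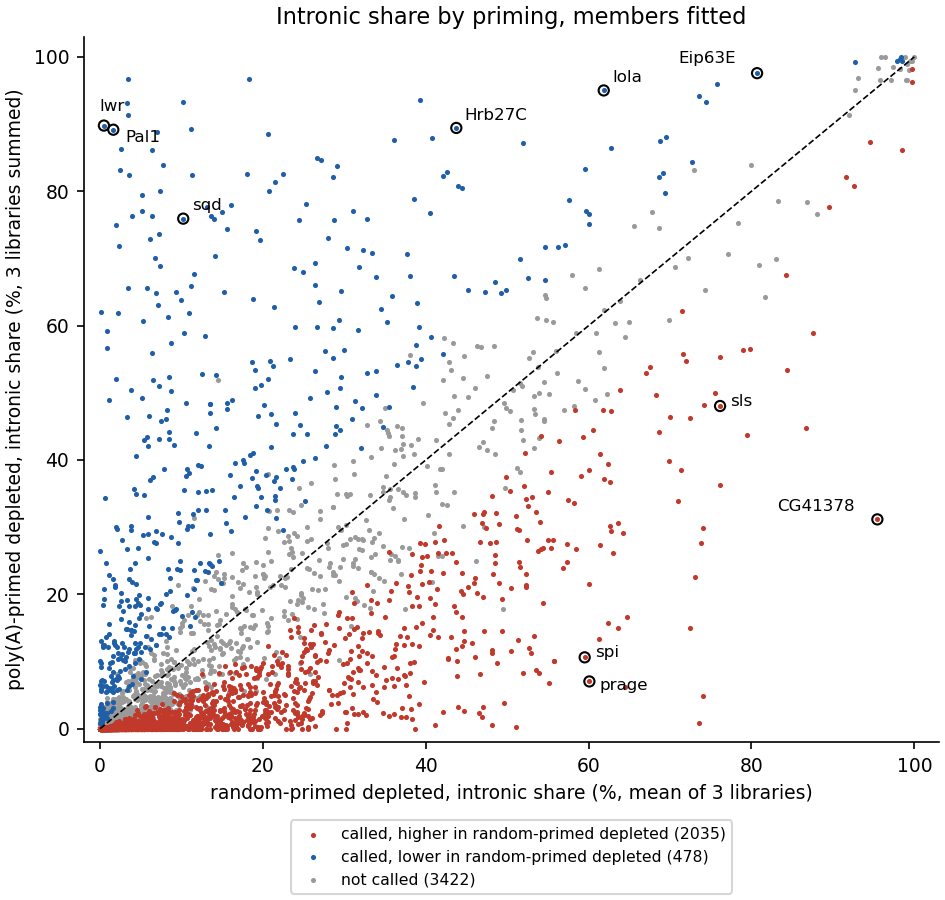
Intronic share in random-primed depleted libraries (horizontal axis, mean of 3) against poly(A)-primed depleted libraries (vertical axis, 3 libraries summed), 1 point per gene fitted, red where the ratio was called higher in random-primed (2035), blue where lower (478) and gray where not called (3422). CG41378, spi and prage lie far below the dashed line of equal shares, and lwr, Pal1, sqd and Hrb27C far above it.

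Against the random-primed input libraries, made with the same kit from undepleted RNA, the intronic share was 7.56% ± 0.579 in depleted and 8.45% ± 0.362 in input libraries (SD, n = 3 each, exact two-sided permutation p = 0.2). By pool the shares were 7.38%, 7.09% and 8.20% in depleted libraries, against 8.49%, 8.07% and 8.79% in the input libraries of the same pools, lower in 3 of 3, and an exact paired permutation test, added after the data were seen, gave p = 0.25, the smallest that 3 pairs allow. Without genes holding same-strand elements the shares were 5.12% ± 0.263 in depleted and 5.86% ± 0.183 in input libraries (SD, n = 3 each, exact unpaired permutation p = 0.1, the smallest possible). Input libraries held 428039 to 596423 non-rRNA counts, so most genes had few intronic counts there. The ratio was called higher in depleted libraries for 13 of 4213 genes (0.309%) and lower for 60 (1.42%) by edgeR. Of 4203 genes of the present set that were fitted, 13 were higher, 59 lower and 4131 not called, and 183 mostly intronic genes gave 1 higher and 6 lower. Mostly intronic genes were chosen by their shares in the depleted libraries. Pooled over all of them, fitted or not, counts were 73.2% intronic in depleted and 73.5% in input libraries.

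Of the 13 higher and 59 lower calls, 2 and 17 were of genes with at least 10 counts of both kinds in all 6 libraries. CG12057 had 154, 258 and 141 intronic counts in depleted libraries, against 0 in each input library beside 465, 521 and 235 spliced counts. With Su(var)2-HP2, NKAIN, syd and CG14478 it made up the 5 largest upward differences, and Syx1A, CG9691, cbt, Ip259 and kri the 5 largest downward. In CG12057, Syx1A, CG9691 and cbt every intron base is exonic in another isoform. Such bases make up 87.8% in Su(var)2-HP2, 75.9% in NKAIN, 69.2% in kri, 66.8% in Ip259, 8.08% in CG14478 and 2.53% in syd. What isoform exons contribute to these differences was not tested. For cbt the call rested on 3.03 intronic counts in input replicate 3, and without that library the sign turned (0.43). With the replicate block, Ip259 (adjusted p = 0.0656) and kri (adjusted p = 0.0635, edgeR) were no longer called. Without input replicate 1, 7 genes were called higher and 16 lower. Calls lower numbered 29 without input replicate 2 and 33 without depleted replicate 1, and calls higher 21 without input replicate 3. TMM on each count type gave 53 higher and 37 lower, so which direction held more calls depended on the scaling.

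At the edge of the count minimum, the genes just inside, CG33460, Atac3 and CG42523, had mean shares of 0.570%, 1.92% and 0%, and those just outside, PGAP5, SCOT and lncRNA:CR43963, had 0.773%, 2.01% and 91.6%.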

How the data were processed

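The authors trimmed adapters, assigned reads with Kallisto to transcripts and to introns with 30 bases of flank (Ensembl, BDGP6.28), and deposited estimated counts per gene, split into spliced and intronic parts, without normalization. They also deposited HTSeq counts of reads on exons, of which those of the poly(A)-primed libraries are used here only as a check. Samples were grouped by the submitters' labels. Intron lengths, nested genes and transposable elements came from the Ensembl annotation of BDGP6.54, in which 6874 of the 6915 genes were found by identifier. The members and lists were chosen with earlier results of these data known.

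Estimated counts were rounded and fitted with edgeR 4.0.16 in R 4.3.3 (2 columns per library, library as block, no TMM within a library, genes with at least 10 summed counts in each library). DESeq2 1.42.0, limma 3.58.1 (0.5 added to each count), other count minimums, TMM, the replicate block and leaving out each library were alternatives, and the fits were tested on simulated data. Tables were made with Python 3.11.15, pandas 2.3.3 and scipy 1.17.1. Limits from a count of 0 (3 counts) cover counting error only.

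Named genes were the 20 highest shares among called mostly intronic genes, the 10 with the most intronic counts, the 5 lowest shares above 10000 summed counts, list members and the 5 largest differences each way in both comparisons with other groups. Others were picked after their values were seen. Depleted and input libraries with the same pool number deviated together (r = 0.22, 0.24 and 0.38 over 652 genes), and for depleted random-primed and poly(A)-primed libraries r was -0.01, 0.05 and 0.20 over 787 genes. Same-numbered libraries are taken as pairs because the labels give the kits the same replicate numbers and the study's methods state that both used the same RNA samples.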

Additional observations from a re-analysis of the deposited data

Results flagged for a closer look

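The balance of intronic and spliced counts turned round between the kinds of library in 2 groups of genes. In 56 genes every random-primed depleted library had more intronic than spliced counts and every poly(A)-primed depleted library fewer. They include spi, the EGF receptor ligand gene, with shares of 61.0%, 54.9% and 62.7% in random-primed, against 9.16%, 12.8% and 9.68% in poly(A)-primed depleted libraries, and prage, with 61.5%, 54.5% and 64.2%, against 7.92%, 6.49% and 6.57%. The edgeR interaction was 3.65 (SE 0.27, adjusted p = 9.58e-40) for spi and 4.29 (SE 0.29, adjusted p = 3.38e-47) for prage. Same-strand elements lay in the introns of 20 of the 56. The 56 are all mostly intronic, and of the 228 mostly intronic genes with an annotation 100 (43.9%) hold such elements.

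In 104 genes the order was the opposite, with fewer intronic than spliced counts in every random-primed depleted library and more in every poly(A)-primed one. They include sqd, an hnRNP gene, at 9.58%, 8.37% and 12.7%, against 75.9%, 74.6% and 78.1% (interaction -4.84, SE 0.24, adjusted p = 1.48e-88, edgeR), and Phb2, a prohibitin gene, at 1.47%, 4.08% and 5.23%, against 82.2%, 79.6% and 87.4%. Of the 104, 100 have intron bases that are exonic in another isoform, and in 78 the HTSeq count was above 2 times the spliced count. Such bases lie in 3253 of the 6033 annotated genes with an intron that are not mostly intronic (53.9%). Such HTSeq counts were found in 69 of all 321 genes with at least 50 poly(A)-primed intronic counts, a minimum not set for the 104. The 104 were also chosen for spliced counts below intronic ones in poly(A)-primed libraries, so the 2 fractions cannot be compared directly. What these values contribute was not tested.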

How the results depend on the processing

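The intronic against spliced calls changed little in direction: over 70 named genes and 560 alternative values, 549 kept their side of the threshold and 11 did not, none with a change of sign. The genes called intronic higher numbered 140 without same-strand elements and 229 to 260 with a library left out (spliced higher 9221 to 9449), and a minimum of 100 counts left 5924 spliced higher. Mostly intronic genes numbered 134 at a minimum of 500 counts, 129 without same-strand gene overlap, 131 without same-strand elements, 79 without elements or same-strand exons, 22 without isoform exons as well, and 242 to 272 with a library left out. The intronic share was 5.26% with rRNA counted, 5.12% without genes holding elements, and 7.23% to 7.79% with a library left out. The ratio per kb was 4.99% without overlapping genes or, separately, without elements, 4.02% with intron flanks, and 5.15% to 5.48% with a library left out. Against poly(A)-primed libraries, calls were 1182 higher and 169 lower at a minimum of 100 counts, 934 and 973 with TMM, 1433 lower in limma, and 1701 to 1963 and 420 to 511 with a library left out. The replicate block, which pairs libraries of 1 RNA pool, gave 1960 higher and 476 lower there, with 2419 of 2619 calls kept, and 16 higher and 66 lower against input, with 61 of 73 kept, and ended no other call named in the text than Ip259 and kri. Against input, calls were 4 and 23 in DESeq2, 31 and 1052 in limma, 4 and 7 at a minimum of 100 counts, 53 and 37 with TMM, and 7 to 21 and 16 to 67 with a library left out (33 lower without depleted replicate 1, 29 lower without input replicate 2, 21 higher without input replicate 3). With a library left out, the log2 difference of cbt ran from -6.95 to 0.43, turning sign without input replicate 3. For the 10 genes named against input, 82 of 111 alternative values kept their side of the threshold, 28 lost the call and 1 turned, the losses including 5, 5 and 4 without input replicates 1, 2 and 3 and 4 in DESeq2. Apart from the settings that leave out libraries or genes, the cause of these shifts was not tested. Counts in the input libraries limit that comparison.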
